A study of Mus musculus with 36 samples.

Results

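Myeloid transcripts were followed in RNA of sorted mouse muscle satellite cells. The set holds 38 genes of macrophages, monocytes, antigen-presenting cells and neutrophils, taken by name, and all 38 were found once among the 55471 gene identifiers of each deposited table. All are protein-coding genes, on 15 chromosomes, and they were grouped by role: 9 leukocyte and lineage receptors, 7 Fc receptors, ITAM adaptors and innate sensors, 12 complement, lysosomal and other macrophage products, 4 MHC class II genes and 6 neutrophil genes. The measure was TPM, a length-corrected share of all transcripts of a library on a scale with a fixed total.

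The 36 libraries come from C57BL/6 mice and fall into 2 tables. In the Drp1 table (21 libraries) the KO cells carried Pax7-CreER, ROSA26YFP and Drp1 fl/fl, and the Control cells carried Pax7-CreER and ROSA26YFP with no floxed allele given. Drp1, the product of Dnm1l, divides mitochondria. Both genotypes were 3 months old, received tamoxifen per the labels, and were sorted as YFP+ cells from resting muscle (QSC, n = 3 each) and 1 day after cardiotoxin (1 DPI, n = 4 each), and as CD34-YFP+ cells 3 days after it (3 DPI, n = 4 KO and 3 Control). CreER is driven by Pax7, so the deletion is directed to satellite cells and is not expected in myeloid cells. The other table (15 libraries) holds wild-type cells of Old mice (24 months) and Young mice (3 months) from QSC, 1 DPI and, for Old only, 3 DPI, with n = 3 each, and the labels give no reporter for these cells and do not say how they were sorted. Replicates are numbered in the labels, which do not say that each is a separate mouse, so p-values measure the spread between these samples, which may be technical. The tables were never combined.

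After a toxin injury, muscle is entered first by neutrophils and then by monocytes that become macrophages, which clear debris and signal to satellite cells. Tyrobp (DAP12) and Fcer1g are ITAM adaptors that carry the signal of activating receptors such as Clec4e (Mincle), and MHC class II molecules, with the invariant chain Cd74, present peptides to CD4 T cells. S100a8 and S100a9 form calprotectin, the main cytosolic protein of neutrophils, which monocytes also make. Satellite cells are muscle stem cells, marked by Pax7 and, once activated, by Myod1. Both markers were present: Myod1 lay between 60.7 and 673 TPM and Pax7 between 2.74 and 33.0 TPM over the 36 libraries.

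Several members lie near each other in the genome (GRCm38), namely Clec4d and Clec4e on chromosome 6, S100a8 and S100a9 on chromosome 3, Fcgr3 and Fcer1g on chromosome 1, C1qa, C1qb and C1qc on chromosome 4 and 3 MHC class II genes on chromosome 17. Start windows of 300 bases, from 250 before to 50 after the annotated start, were taken from RefSeq (GRCm38.p6) for the 29 members that matched. They were searched on both strands for GAGGAA, the core recognised by PU.1, the myeloid ETS factor encoded by Spi1. On the opposite strand it reads TTCCTC. The letters occurred in 18 of 32 member windows (56.2%) and in 9289 of 32851 windows of all genes (28.3%). By gene, 17 of 29 members held them in at least 1 window, against 31.3% of 27025 genes. The share was 4 of 5 for Fc receptors, adaptors and sensors, 7 of 10 for macrophage products, 4 of 7 for receptors, 2 of 5 for neutrophil genes and 0 of 2 for MHC class II. A match is a description of the letters and not a binding site. Below are 4 windows with more than 1 match, of 2 C-type lectins, a lysosomal protease and a neutrophil gene, all of which rose at 1 DPI in both genotypes. They are written 5′ to 3′ on the strand of the gene, with the match in capitals: Clec4d on the plus strand at chr6:123261857-123262156, Clec4e on the minus strand at chr6:123289822-123290121, Ctss on the plus strand at chr3:95526536-95526835 and S100a8 on the plus strand at chr3:90668821-90669120.
Clec4d: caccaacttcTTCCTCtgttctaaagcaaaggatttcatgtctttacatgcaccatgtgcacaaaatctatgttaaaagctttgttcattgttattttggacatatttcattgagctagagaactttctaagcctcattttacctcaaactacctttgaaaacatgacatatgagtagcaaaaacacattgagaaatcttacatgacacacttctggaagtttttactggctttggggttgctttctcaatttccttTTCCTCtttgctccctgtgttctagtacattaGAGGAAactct
Clec4e: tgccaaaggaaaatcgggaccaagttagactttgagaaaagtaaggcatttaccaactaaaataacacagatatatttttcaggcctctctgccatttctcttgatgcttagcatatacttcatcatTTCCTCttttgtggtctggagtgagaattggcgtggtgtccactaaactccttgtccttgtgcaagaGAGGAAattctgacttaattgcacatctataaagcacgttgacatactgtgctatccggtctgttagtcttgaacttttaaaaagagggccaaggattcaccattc
Ctss: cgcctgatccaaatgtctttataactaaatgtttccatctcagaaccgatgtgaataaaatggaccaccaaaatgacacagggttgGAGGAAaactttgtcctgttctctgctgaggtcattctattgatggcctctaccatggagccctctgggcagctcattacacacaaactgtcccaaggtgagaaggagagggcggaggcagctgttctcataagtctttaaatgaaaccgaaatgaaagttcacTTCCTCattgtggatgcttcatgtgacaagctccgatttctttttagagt
S100a8: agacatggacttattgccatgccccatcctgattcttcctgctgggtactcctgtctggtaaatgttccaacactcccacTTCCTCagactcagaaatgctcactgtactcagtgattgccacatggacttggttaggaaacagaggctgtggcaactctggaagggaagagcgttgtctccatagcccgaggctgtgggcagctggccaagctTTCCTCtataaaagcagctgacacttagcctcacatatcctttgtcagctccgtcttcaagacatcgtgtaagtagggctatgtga

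In each library 12325 to 14969 genes were at 1 TPM or more. The number of reads behind a value cannot be recovered from TPM, so its counting error is not known. Dnm1l TPM, which includes reads outside the deleted part, overlapped between libraries labelled KO and Control in QSC (32.7 to 43.4 against 30.9 to 39.5), and was lower in every KO than in every Control library at 1 DPI (29.0 to 41.0 against 43.8 to 52.9) and at 3 DPI (22.2 to 37.5 against 61.5 to 69.8). In QSC the genotype therefore rests on the labels. The Young and Old table holds no 0. Libraries that lack a gene share a lowest value for it, called the floor below, and the floors of the 23 members that have one differ between genes by a factor of 0.548 to 7.315 relative to the commonest floor. The factors were measured at the floor only, and whether they also apply to values above it was not tested. Levels of that table were therefore compared between libraries but not between genes. Its sums, shares and ratios over genes may carry these factors and are given to compare its own libraries only. The libraries that stood apart by their myeloid content were KO 1 DPI replicate 2, Control 1 DPI replicates 1 and 3 and Old QSC replicate 1, and where a call given with its values was lost without one of them, this is said beside it.

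**Figure D1:**
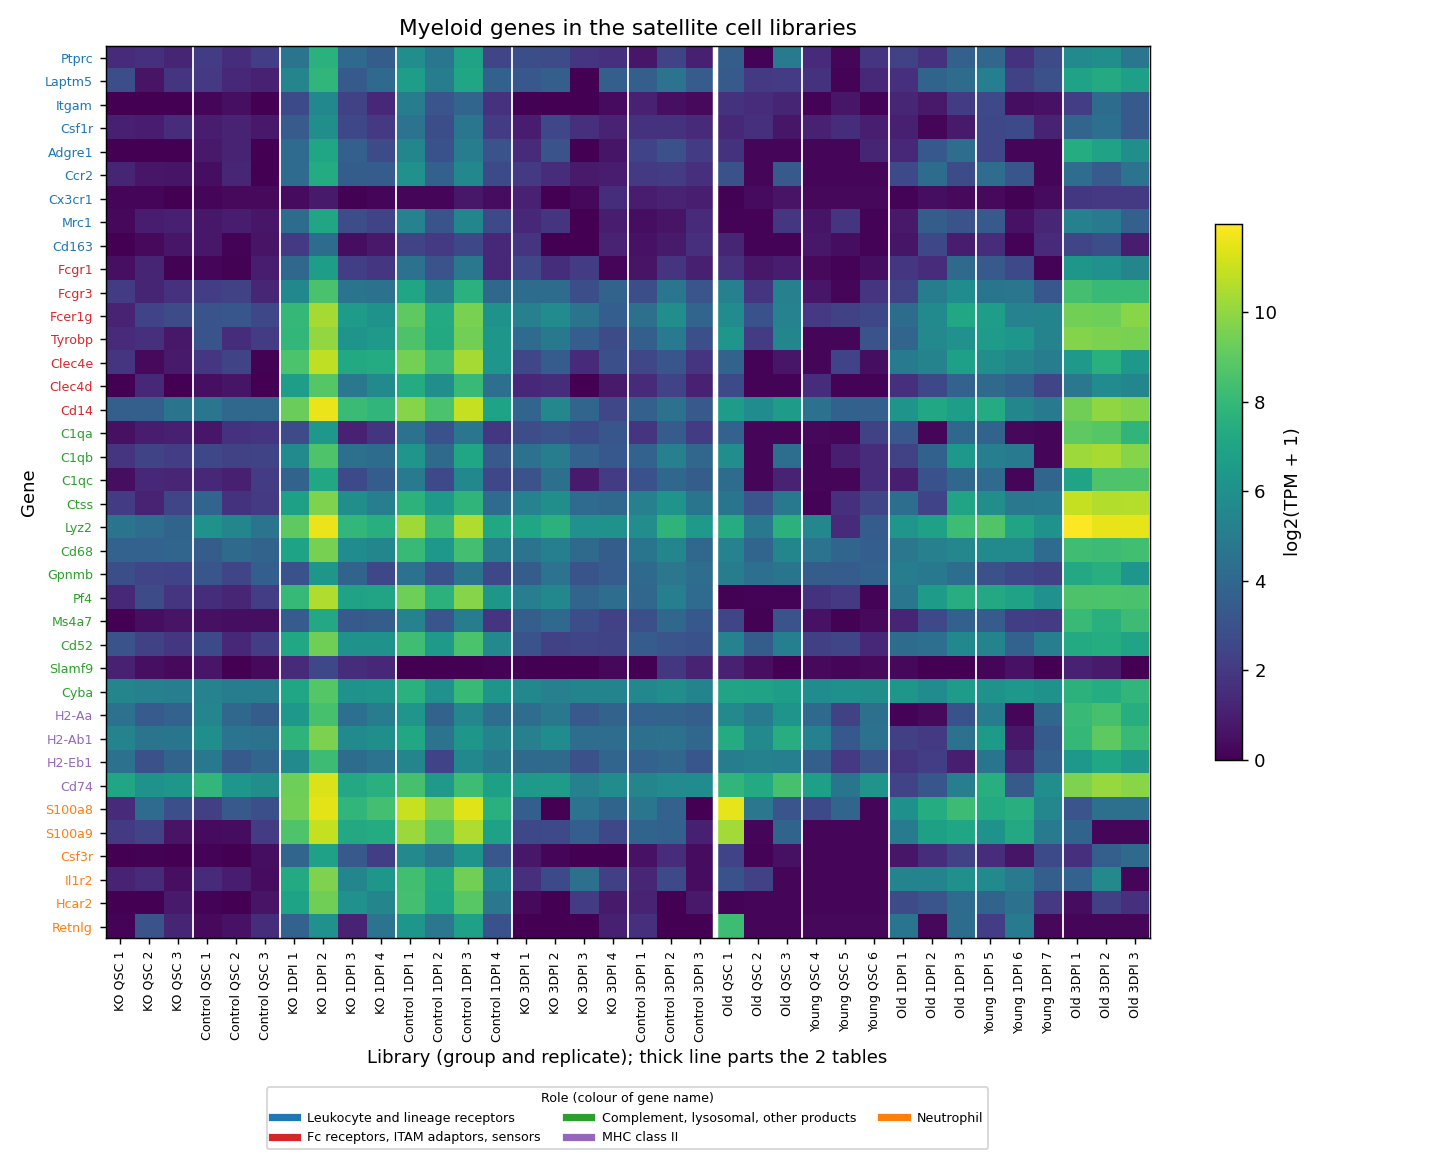
Level of each of the 38 myeloid genes (rows, gene names coloured by role) in each of the 36 libraries (columns, by group and replicate), as log2(TPM + 1), with a thick line between the 2 tables. The KO and Control 1 DPI columns and the Old 3 DPI columns are the brightest, the QSC columns are dark except for a few genes such as Cd74, and Old QSC replicate 1 stands out in the neutrophil rows at the bottom.

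In resting muscle of the Drp1 table the myeloid transcripts were low. Their summed level was 348, 255 and 261 TPM in KO QSC and 590.3, 286 and 249.9 TPM in Control QSC. MHC class II genes made up 60.1, 42.0 and 49.2% of that sum in KO QSC and 63.4, 42.9 and 42.3% in Control QSC. In a bulk sample a small number of cells of another type and a low level of RNA per cell cannot be told apart, here or in any comparison below.

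By role, the receptors were near the bottom of the scale. Ptprc, the pan-leukocyte phosphatase CD45, had 1.79, 2.07 and 1.39 TPM in KO QSC and 3.16, 1.99 and 3.57 TPM in Control QSC. Itgam, the integrin chain CD11b, and Adgre1, which encodes F4/80, stayed at or under 1.22 TPM in every QSC library and were at 0 in some of them. Cd74 was the most abundant member, with 127, 66.8 and 79.0 TPM in KO QSC and 241, 75.8 and 59.8 TPM in Control QSC. Cyba (p22phox), a membrane subunit of the NADPH oxidase that many cell types carry, had 41.9, 35.6 and 33.3 TPM in KO QSC and 38.1, 31.1 and 31.3 TPM in Control QSC. Its libraries were within a narrow band, unlike those of most members.

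No member was called between KO and Control in QSC: limma called 0 of 38, against 0.213% of 18343 genes in either direction. An unadjusted p under 0.05 was seen for 0 of 38 members and 870 of 18343 genes. The members' median log2 fold change was -0.14, beside 0.01 for all genes. Lyz2, the lysozyme of myeloid cells, had 23.3, 18.2 and 13.6 TPM in KO QSC and 66.9, 43.2 and 23.0 TPM in Control QSC, with a log2 fold change of -1.13 ± 0.91 (SE, adjusted p = 1 by limma). The highest KO library was level with the lowest Control library for this gene.

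One day after injury the myeloid transcripts were far more abundant in both genotypes. Their summed level was 5498, 27655, 2116 and 2199 TPM in KO 1 DPI and 10702, 3680.2, 15339.6 and 1431 TPM in Control 1 DPI, so that even the lowest library lay above all QSC libraries. Other RNA moved with this step, and its part in the result was not tested. The 12 satellite cell and myoblast markers summed to 1569 to 3367 TPM in KO 1 DPI and 6515 to 7912 TPM in KO QSC, and to 1958 to 2818 TPM in Control 1 DPI and 6866 to 8752 TPM in Control QSC. The 5 erythroid markers summed to 144 to 1624 TPM in KO 1 DPI and 32.4 to 126 TPM in KO QSC, and to 187 to 1785 TPM in Control 1 DPI and 113 to 236 TPM in Control QSC. The 6 mast cell markers reached 93.5 TPM in KO 1 DPI and 35.8 TPM in Control 1 DPI but were at 0 in some of these libraries, and were at most 0.991 TPM in QSC. Against QSC, limma called 32 of 38 members higher in KO and 29 higher in Control, and none lower. Within QSC only 26 of the 38 members had 1 TPM or more in at least 3 libraries, the minimum for testing, and within 1 DPI 37 had. A member kept only through 1 DPI was bound to differ, and the calls that this concerns were not counted. Of all 18343 genes, 32.1% were called in either direction in KO and 35.9% in Control, and 21.6% and 23.3% were called higher. On the median, the log2 fold change was 3.56 in KO and 3.42 in Control, beside 0.16 and 0.15 for all genes. In KO 32 members and in Control 31 had every 1 DPI library above every QSC library. This was not counted for all genes, so whether the members separated more often than other genes is not known.

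**Figure D2:**
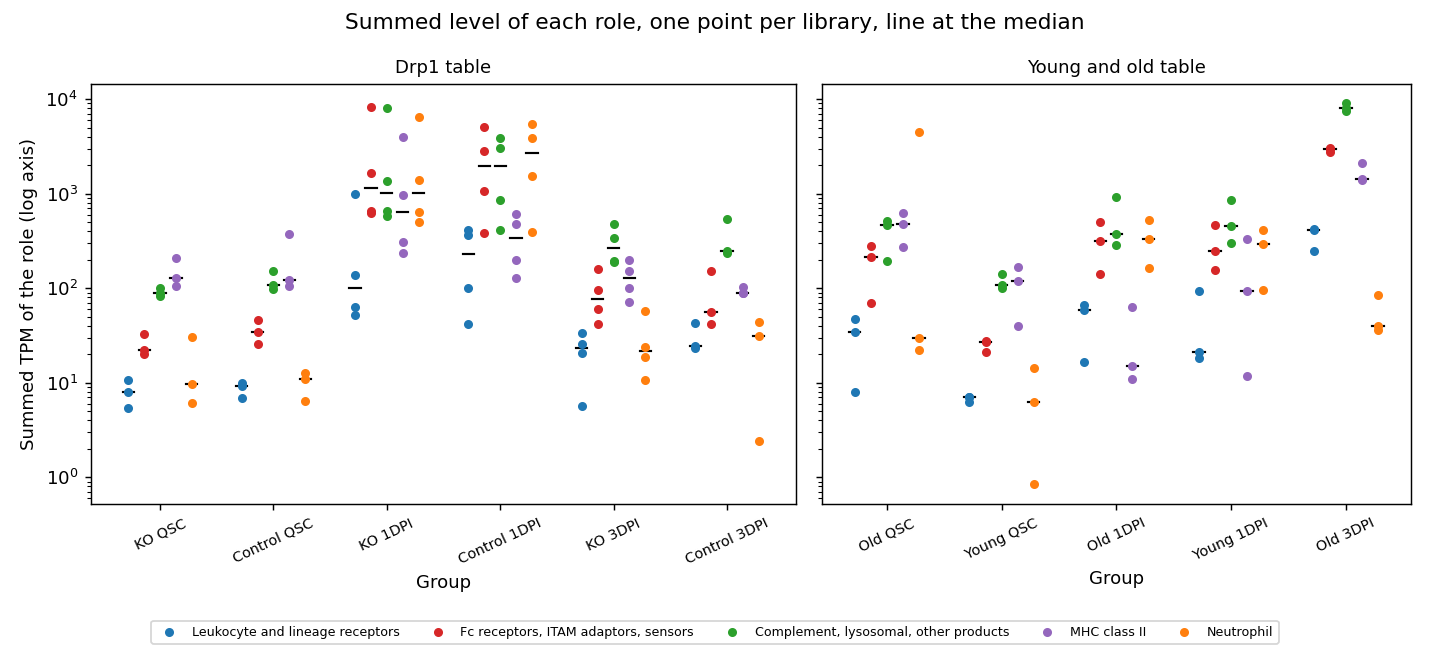
Summed TPM of each role on a log axis, 1 point per library and a black line at the group median, with the Drp1 table on the left and the Young and Old table on the right. In KO 1 DPI all 5 roles are spread over more than a decade, in both 3 DPI groups of the Drp1 table they are low again, and in Old 3 DPI the macrophage roles are high while the neutrophil sum is 36.4 to 84.7.

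Among the receptors, 7 of 9 rose in each genotype, and Cx3cr1 and Cd163 were not called in either. Laptm5, a lysosomal membrane protein of blood cells, had 42.8, 234, 9.31 and 16.1 TPM in KO 1 DPI and 6.32, 0.541 and 2.46 TPM in KO QSC, a log2 fold change of 3.44 ± 1.00 (SE, adjusted p = 0.0115 by limma). In Control it had 102, 31.2, 128 and 12.2 TPM at 1 DPI and 2.99, 1.64 and 1.12 TPM in QSC, a log2 fold change of 4.11 ± 1.00 (SE, adjusted p = 0.00276 by limma). The groups did not overlap in either genotype. Ptprc had 23.5, 199, 15.8 and 10.5 TPM in KO 1 DPI and 57.0, 24.7, 116 and 4.62 TPM in Control 1 DPI, and its log2 fold change over QSC was 3.51 ± 0.87 (SE, adjusted p = 0.00387 by limma) in KO and 3.03 ± 0.87 (SE, adjusted p = 0.00956 by limma) in Control. Ccr2, the receptor that draws monocytes toward Ccl2, had 17.3, 161, 10.4 and 10.1 TPM in KO 1 DPI and 65.4, 11.7, 47.6 and 5.39 TPM in Control 1 DPI. It rose by 3.77 ± 0.80 (SE, adjusted p = 0.00109 by limma) in KO and by 3.92 ± 0.80 (SE, adjusted p = 0.000639 by limma) in Control on the log2 scale. Cx3cr1, the fractalkine receptor, stayed under 1 TPM in all 8 libraries at 1 DPI.

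All 7 Fc receptors, adaptors and sensors rose in both genotypes, with a median log2 fold change of 5.65 in KO and 5.04 in Control. Clec4e, whose promoter is printed above and which had the smallest p of the members in KO, had 384, 1815, 154 and 161 TPM in KO 1 DPI and 2.44, 0.232 and 0.818 TPM in KO QSC, a log2 fold change of 7.53 ± 0.88 (SE, adjusted p = 1.96e-06 by limma). In Control it had 713, 290.1, 1294 and 75.6 TPM at 1 DPI and 2.69, 4.53 and 0.0629 TPM in QSC, a log2 fold change of 7.09 ± 0.88 (SE, adjusted p = 2.7e-06 by limma). It was thus at most 4.53 TPM in every QSC library and at least 75.6 TPM in every 1 DPI library. Cd14, the co-receptor for lipopolysaccharide, had 601, 3098, 283 and 232 TPM in KO 1 DPI and 11.4, 11.4 and 23.0 TPM in KO QSC. In Control 1 DPI it had 889, 375, 1894 and 122 TPM, against 24.7, 15.3 and 14.997 TPM in Control QSC. Its log2 fold change was 5.26 ± 0.85 (SE, adjusted p = 7.37e-05 by limma) in KO and 4.81 ± 0.85 (SE, adjusted p = 0.000148 by limma) in Control. Tyrobp had 242, 1044, 72.3 and 88.5 TPM in KO 1 DPI and 1.68, 2.01 and 0.719 TPM in KO QSC, a log2 fold change of 6.39 ± 0.81 (SE, adjusted p = 4.72e-06 by limma). In Control 1 DPI it had 392, 150.3, 679.7 and 80.1 TPM, against 7.54, 1.92 and 3.18 TPM in Control QSC, a log2 fold change of 5.67 ± 0.81 (SE, adjusted p = 1.37e-05 by limma).

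Of the 12 complement, lysosomal and other macrophage products, 10 rose in KO and 9 in Control, and Gpnmb and C1qa were called in neither. Lyz2 had 509, 3163, 243 and 184 TPM in KO 1 DPI and 1226, 286, 1481 and 136 TPM in Control 1 DPI, with log2 fold changes over QSC of 4.78 ± 0.85 (SE, adjusted p = 0.000201 by limma) in KO and 3.64 ± 0.85 (SE, adjusted p = 0.00209 by limma) in Control. Pf4, a chemokine of platelets that macrophages also make, had 254, 1474, 116 and 127 TPM in KO 1 DPI and 635, 204, 885 and 80.3 TPM in Control 1 DPI, beside 1.47 to 5.56 TPM in the 6 QSC libraries. It was the member of this role with the largest change, a log2 fold change of 6.13 ± 0.79 (SE, adjusted p = 5.73e-06 by limma) in KO and 6.59 ± 0.79 (SE, adjusted p = 1.58e-06 by limma) in Control. Cd68, a lysosomal glycoprotein of phagocytes, had 121, 719, 55.0 and 44.2 TPM in KO 1 DPI and 276, 83.3, 335 and 31.5 TPM in Control 1 DPI, beside 10.6 to 16.6 TPM in QSC. Its log2 fold change was 3.11 ± 0.79 (SE, adjusted p = 0.00455 by limma) in KO and 3.16 ± 0.79 (SE, adjusted p = 0.00347 by limma) in Control. C1qa, a chain of the first complement component, had 5.58, 82.7, 1.14 and 2.55 TPM in KO 1 DPI and 20.8, 6.94, 24.6 and 2.78 TPM in Control 1 DPI. The libraries with the highest C1qa were those with the highest myeloid sum, and the lowest, KO replicate 3, lay within the QSC range of 0.448 to 2.47 TPM.

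Of the 6 neutrophil genes, 6 rose in Control and 5 in KO, where Retnlg, a resistin-like secreted protein, was not called. S100a9, with the smallest p of the members in Control, had 407, 1912, 147 and 165 TPM in KO 1 DPI and 3.06, 4.53 and 0.546 TPM in KO QSC, a log2 fold change of 6.83 ± 0.91 (SE, adjusted p = 8.23e-06 by limma). In Control it had 1127, 425, 1501 and 114 TPM at 1 DPI and 0.274, 0.3 and 3.20 TPM in QSC, a log2 fold change of 8.14 ± 0.91 (SE, adjusted p = 6.8e-07 by limma). Every 1 DPI library, from 114 TPM up, was above every QSC library, at most 4.53 TPM. S100a8 had 673, 2864, 234 and 330.2 TPM in KO 1 DPI and 1954, 768, 2667 and 194 TPM in Control 1 DPI, beside 1.72 to 16.9 TPM in QSC. Hcar2, the niacin and ketone body receptor, had 121, 661, 65.9 and 43.0 TPM in KO 1 DPI and 335, 129.6, 459.9 and 26.1 TPM in Control 1 DPI, and was at or under 0.843 TPM in QSC. It did not reach the minimum for testing within QSC, so it was bound to differ.

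Of the MHC class II genes, 3 of 4 (Cd74, H2-Ab1 and H2-Aa) rose in KO at 1 DPI and 0 of 4 in Control, and all 3 calls were lost without KO replicate 2. Cd74 had 631, 2537, 146 and 189 TPM in KO 1 DPI and 359, 87.8, 303 and 111 TPM in Control 1 DPI. The log2 fold change of Cd74 over QSC was 2.37 ± 0.74 (SE, adjusted p = 0.0179 by limma) in KO and 0.80 ± 0.74 (SE, adjusted p = 0.436 by limma) in Control. H2-Ab1, the beta chain of I-A, had 215, 767, 50.8 and 60.6 TPM in KO 1 DPI and 136, 22.7, 80.5 and 40.3 TPM in Control 1 DPI, with log2 fold changes over QSC of 2.38 ± 0.73 (SE, adjusted p = 0.0165 by limma) in KO and 0.84 ± 0.73 (SE, adjusted p = 0.406 by limma) in Control. Without KO replicate 2 the log2 fold change in KO was 1.55 (adjusted p = 0.0557 by limma) for Cd74 and 1.60 (adjusted p = 0.0535 by limma) for H2-Ab1. For both genes the KO and Control libraries overlapped at 1 DPI. The test of the difference between genotypes in the step from QSC to 1 DPI called 0 of 38 members, against 0.0218% of 18343 genes. An unadjusted p under 0.05 was seen for 1 of 38 members and 793 of 18343 genes. For Cd74 that difference was 1.57 ± 1.04 (SE, adjusted p = 1 by limma).

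Direct comparison of the genotypes at 1 DPI called 1 of 38 members, against 0.278% of all genes. It was Slamf9, a receptor of the SLAM family of leukocytes, with 1.701, 5.09, 1.92 and 1.57 TPM in KO 1 DPI and 0, 0, 0 and 0.0915 TPM in Control 1 DPI. All 4 KO libraries were above all 4 Control libraries, and the log2 fold change was 1.705 ± 0.35 (SE, adjusted p = 0.0404 by limma). At 1 DPI only KO libraries, where Slamf9 was high, reached the 1 TPM of the minimum for testing. The filter thus favoured a difference, and the call is not independent of it. That call was lost in 14 of 14 alternative fits (limma adjusted p between 0.0514 and 0.266). The median log2 fold change of the members was -0.01, and its sign turned with single libraries: it was -0.85 without KO replicate 2 and 0.44 without Control replicate 3. For Cd74 the log2 fold change between genotypes was 1.34 ± 0.68 (SE, adjusted p = 0.955 by limma), and for H2-Ab1 it was 1.40 ± 0.68 (SE, adjusted p = 0.945 by limma). Without KO replicate 2 they were 0.52 (adjusted p = 0.909 by limma) for Cd74 and 0.62 (adjusted p = 0.886 by limma) for H2-Ab1.

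The make-up of the myeloid RNA was compared by ratios and shares within a library. Cd74 per Tyrobp, a ratio chosen after the values were seen and therefore not tested, was 2.61, 2.43, 2.01 and 2.14 in KO 1 DPI and 0.916, 0.584, 0.445 and 1.38 in Control 1 DPI. The 4 KO libraries lay above all 4 Control libraries in this ratio, while Tyrobp itself overlapped. MHC class II genes were 17.8, 14.3, 11.04 and 13.9% of the summed member TPM in KO 1 DPI and 5.71, 3.47, 3.10 and 13.8% in Control 1 DPI. Neutrophil genes were 25.2, 23.2, 23.7 and 29.3% in KO 1 DPI and 36.2, 41.5, 35.9 and 27.7% in Control 1 DPI. Both shares overlapped between the genotypes through Control replicate 4, the library with the lowest myeloid sum. Immunoglobulin kappa RNA (Igkc) reached 441 TPM in 1 KO library, replicate 2, and its part in the MHC class II values was not tested. In the other 3 KO libraries the 7 B cell markers summed to 3.56, 10.4 and 4.19 TPM.

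**Figure D3:**
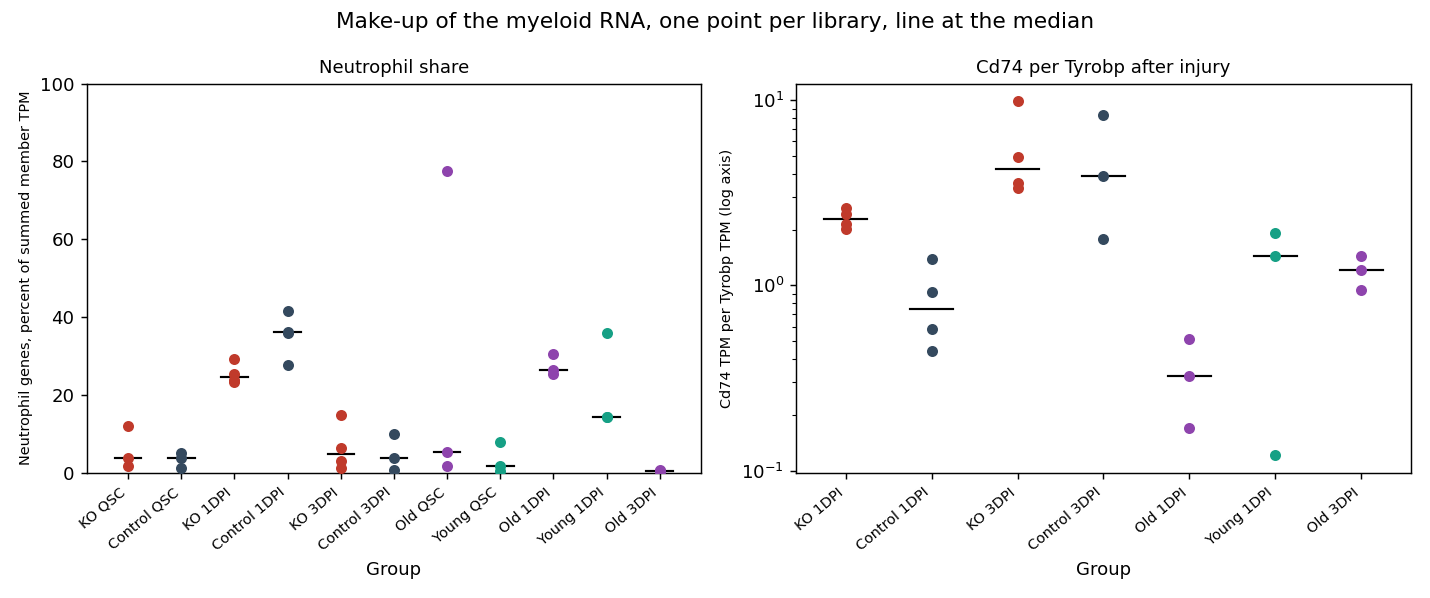
Left, the neutrophil genes' percent of the summed member TPM in each library. Right, TPM of Cd74 per TPM of Tyrobp on a log axis for the injured groups, with a black line at each group median. KO 1 DPI lies above Control 1 DPI in the right panel without overlap, and Old QSC replicate 1 is the single point at 77.5% in the left panel. Values of the Young and Old table may carry a factor per gene and are not to be read on the same scale as those of the Drp1 table.

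At 1 DPI the libraries of 1 genotype differed widely in how much myeloid RNA they held. The highest summed level was 13.1 times the lowest in KO and 10.7 times the lowest in Control. Most members varied together across these 8 libraries, by their correlation with Tyrobp on the log2(TPM + 1) scale. The correlation was tested for 18197 genes by exact permutation with Benjamini-Hochberg adjustment over all of them: 27 of 37 members passed, all positive, against 2.77% of all genes. The members' median Pearson r was 0.958, that of all genes -0.157, and 27 members had r over 0.9, as did 3.06% of all genes. By role, 7 of 9 receptors, 6 of 6 Fc receptors, adaptors and sensors, 9 of 12 macrophage products, 5 of 6 neutrophil genes and 0 of 4 MHC class II genes passed.

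For Laptm5 the exact permutation test gave r = 0.992 (p = 2.48e-05, which is the smallest p that the permutations can give, adjusted p = 0.0164) and rho = 1 (exact p = 4.96e-05, adjusted p = 0.0273) over 8 libraries. For Clec4e the exact permutation test gave r = 0.976 (p = 7.44e-05, adjusted p = 0.0164) and rho = 0.976 (exact p = 0.000397, adjusted p = 0.0516) over 8 libraries. The neutrophil gene S100a8 followed Tyrobp about as closely as the macrophage gene Lyz2 did, with r = 0.967 and 0.977. The 4 MHC class II genes had r between 0.718 and 0.804, and with each genotype centred on its own mean 3 of 4 passed, with a median r of 0.907. Slamf9 had r = 0.165. These relations share their libraries and a scale with a fixed total per library. By Spearman's rho 2 of 37 members passed. Centring each genotype on its own mean left 32 members past the threshold and a median r of 0.97. Without the 2 libraries farthest from the median of Tyrobp, KO replicate 2 and Control replicate 3, 0 members passed with 6 libraries, for which the smallest exact p is 0.001389, and the median r was 0.90.

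Other genes moved with Tyrobp in the same 8 libraries. Of lists of related markers, 20 of 30 other macrophage and monocyte genes, 13 of 16 pan-leukocyte genes, 9 of 14 other neutrophil genes, 6 of 9 NADPH oxidase genes (a list that holds the member Cyba) and 11 of 19 myeloid growth factors and chemoattractants passed with positive r. Of 18197 genes 220 passed with negative r, and 3 of the 12 satellite cell and myoblast markers did. These markers had r between -0.947 and -0.669. Their summed level was 2493, 1569, 3367 and 2861 TPM in KO 1 DPI and 2244, 2522, 1958 and 2818 TPM in Control 1 DPI. Globin and other erythroid RNA had a median r of 0.883 with 0 of 5 passed, and summed to 637, 1624, 537 and 144 TPM in KO 1 DPI and 1038, 347, 1785 and 187 TPM in Control 1 DPI. Of fibro-adipogenic markers 5 of 8 passed, of endothelial markers 2 of 7, of B cell markers 1 of 4 and of mast cell markers 0 of 5, with a median r of 0.752 for B cell and 0.747 for mast cell markers. T cell and NK cell markers summed to at most 3.60 and 1.32 TPM in a library. Highest among them were Lck, at up to 1.81 TPM in KO and 2.05 TPM in Control, and Prf1, at up to 1.32 and 1.06 TPM. Cd5, Cd3g and Cd3e were at 0 in all 4 KO libraries and reached 0.114, 0.0347 and 0.343 TPM in Control. Trbc2, Cd8a and Cd2 went the other way, at 0 in all 4 Control libraries and up to 1.19, 0.46 and 0.505 TPM in KO. Cd3d reached 0.814 TPM in KO and 0.0809 TPM in Control, and Cd4 reached 0.564 and 0.451 TPM. Ncr1, Nkg7, Gzma and Klrd1 were at 0 in all 8. The part of erythroid, stromal, endothelial, B cell and mast cell RNA in these relations was not tested.

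**Figure D4:**
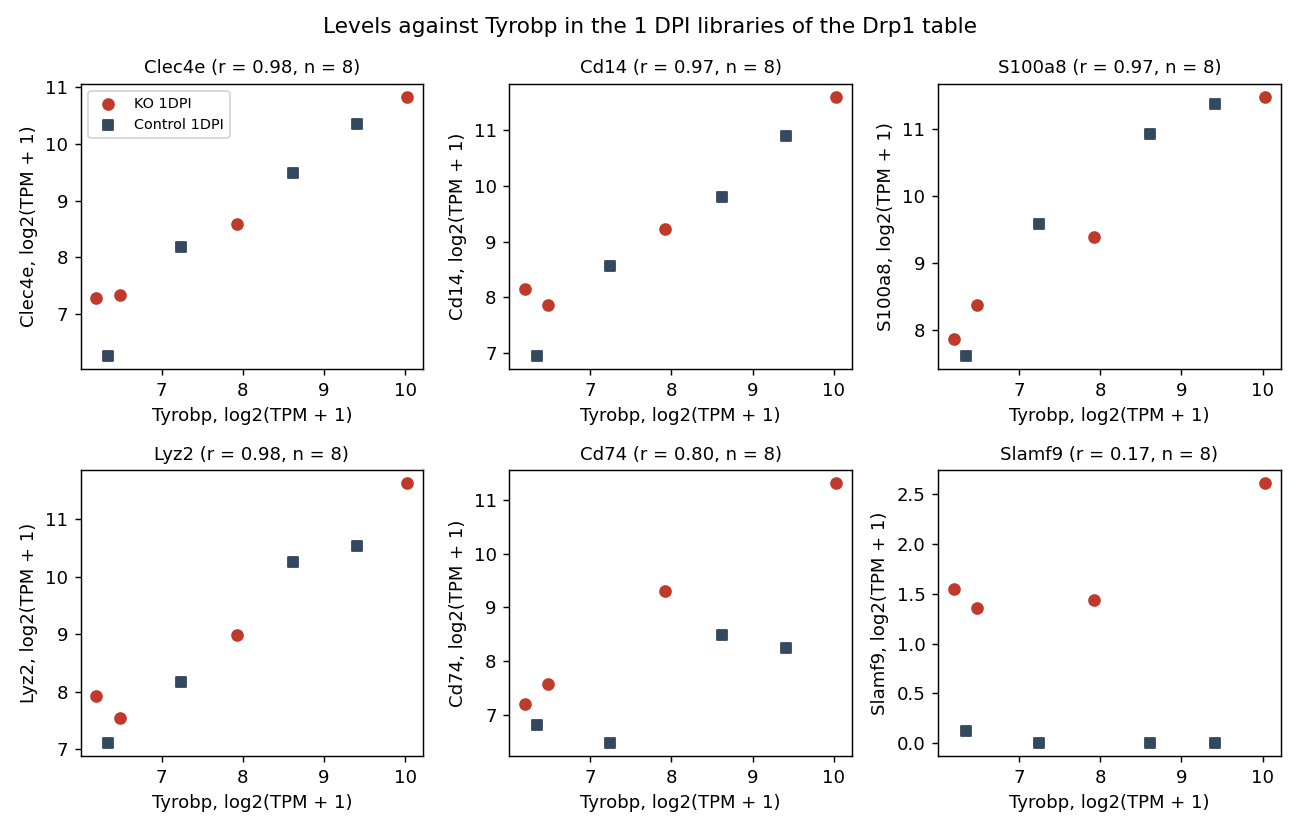
Level of 6 members against Tyrobp, both as log2(TPM + 1), in the 4 KO 1 DPI (red circles) and 4 Control 1 DPI (dark squares) libraries, with Pearson's r above each panel. Clec4e, Cd14, S100a8 and Lyz2 climb with Tyrobp in both genotypes, the KO points of Cd74 lie above the Control points of similar Tyrobp level, and Slamf9 is at 1.57 to 5.09 TPM in KO and at most 0.0915 TPM in Control.

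In the other states no member passed this test, nor did any gene of the tables. The medians of r were 0.214 in the 6 QSC and 0.553 in the 7 libraries of 3 DPI of the Drp1 table, and 0.748 in QSC and 0.427 at 1 DPI of the other table, with 6 libraries each. At an unadjusted exact p under 0.05 these strata held 2 of 37, 8 of 37, 13 of 36 and 2 of 36 members. Of all genes they held 1009 of 18086, 690 of 17795, 1948 of 16948 and 370 of 16948. With so few libraries the smallest exact p is 0.001389 for 6 and 0.0001984 for 7, which cannot pass an adjustment over all genes unless many genes reach it.

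At 3 DPI the myeloid transcripts were low again in the CD34-YFP+ cells of the Drp1 table, which were sorted by another gate than at 1 DPI, so that gate and time cannot be told apart. Their summed level was 633, 880.5, 384 and 381 TPM in KO 3 DPI and 446, 867 and 403 TPM in Control 3 DPI. Against 1 DPI, limma called 25 of 38 members lower in KO and 17 lower in Control, and none higher. Of all genes, 18.9% and 13.3% were called in either direction, and 12.1% and 8.25% were called lower. These comparisons share their 1 DPI libraries with those above. The minimum for testing was reached by 37 members within 1 DPI and by 33 within 3 DPI, and a member kept only through 1 DPI was bound to differ. The median log2 fold change of the members was -2.63 in KO and -2.29 in Control, beside -0.17 and -0.13 for all genes, and in KO the count was 18 without KO 1 DPI replicate 2.

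All 6 neutrophil genes fell in both genotypes, with a median log2 fold change of -5.07 in KO and -6.21 in Control. Hcar2, with the smallest p in both, had 0.251, 0, 3.35 and 0.843 TPM in KO 3 DPI and 1.27, 0 and 0.74 TPM in Control 3 DPI. Its log2 fold change was -6.12 ± 0.79 (SE, adjusted p = 2.03e-05 by limma) in KO and -6.60 ± 0.86 (SE, adjusted p = 2.74e-05 by limma) in Control. Hcar2 did not reach the minimum for testing within QSC or within 3 DPI. It was kept only through 1 DPI and was therefore bound to differ. S100a8 had 10.8, 0, 22.4 and 13.4 TPM in KO 3 DPI and 25.2, 12.5 and 0 TPM in Control 3 DPI, far under every 1 DPI library. Of the Fc receptors, adaptors and sensors, 5 of 7 fell in each genotype. Cd14 had 13.7, 45.7, 14.1 and 4.92 TPM in KO 3 DPI and 11.7, 21.6 and 9.05 TPM in Control 3 DPI. It was lower than in every 1 DPI library, with log2 fold changes of -5.23 ± 0.79 (SE, adjusted p = 0.000102 by limma) in KO and -5.21 ± 0.85 (SE, adjusted p = 0.000302 by limma) in Control.

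Of the 12 macrophage products, 6 fell in KO and 2, Pf4 and Cd52, fell in Control. Lyz2 had 131, 202, 65.1 and 69.8 TPM in KO 3 DPI and 57.2, 217 and 85.8 TPM in Control 3 DPI, with a log2 fold change of -2.30 ± 0.79 (SE, adjusted p = 0.0478 by limma) in KO and -2.32 ± 0.85 (SE, adjusted p = 0.0784 by limma) in Control. The call of Lyz2 in KO was lost in 9 of 14 alternative fits, among them that without KO 1 DPI replicate 2. C1qb, another chain of C1q, had 21.2, 32.0, 12.5 and 8.67 TPM in KO 3 DPI and 12.5, 35.98 and 14.4 TPM in Control 3 DPI. It was not called in either genotype, with log2 fold changes of -1.62 ± 0.82 (SE, adjusted p = 0.178 by limma) in KO and -0.899 ± 0.88 (SE, adjusted p = 0.572 by limma) in Control. Its 3 DPI levels lay above those of QSC, which were 2.59 to 4.93 TPM. Ms4a7, a tetraspan membrane protein of macrophages, likewise had 11.2, 15.8, 6.27 and 4.11 TPM in KO 3 DPI and 6.57, 14.9 and 8.80 TPM in Control 3 DPI, beside at most 0.558 TPM in QSC. Of MHC class II, 3 of 4 genes fell in KO (Cd74, H2-Ab1 and H2-Aa) and 0 of 4 in Control. The calls of H2-Aa and H2-Ab1 were lost in 9 and 6 of 14 alternative fits, each also without KO 1 DPI replicate 2.

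Receptors fell in 5 of 9 cases in KO and 4 of 9 in Control. Ccr2 had 3.04, 1.84, 0.806 and 0.968 TPM in KO 3 DPI and 3.10, 3.25 and 2.11 TPM in Control 3 DPI, with log2 fold changes of -3.29 ± 0.74 (SE, adjusted p = 0.00388 by limma) in KO and -2.58 ± 0.80 (SE, adjusted p = 0.0385 by limma) in Control. The call in Control was lost in 8 of 13 alternative fits, among them those without Control 1 DPI replicate 1 or replicate 3. Cx3cr1 was the only member whose 3 Control 3 DPI libraries (0.899, 1.18 and 1.01 TPM) all lay above the 4 Control 1 DPI libraries (0.162, 0.127, 0.71 and 0.332 TPM), and it was not called.

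Between KO and Control at 3 DPI 0 of 38 members were called, against 0.283% of all genes. An unadjusted p under 0.05 was seen for 1 of 38 members and 996 of 18343 genes. The test of the genotype difference in the step from 1 to 3 DPI also called 0 members, against 0% of all genes. There 1 of 38 members and 831 of 18343 genes had an unadjusted p under 0.05. Slamf9 fell in KO, with 0, 0, 0 and 0.205 TPM in KO 3 DPI and a log2 fold change of -1.67 ± 0.35 (SE, adjusted p = 0.00231 by limma). In Control 3 DPI it had 0, 2.81 and 1.22 TPM. Of the KO groups in this step only 1 DPI, where Slamf9 was high, reached the 1 TPM of the minimum for testing, so the filter favoured its fall. The difference between the genotypes in this step was -2.66 ± 0.52 (SE, adjusted p = 0.331 by limma).

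**Figure D5:**
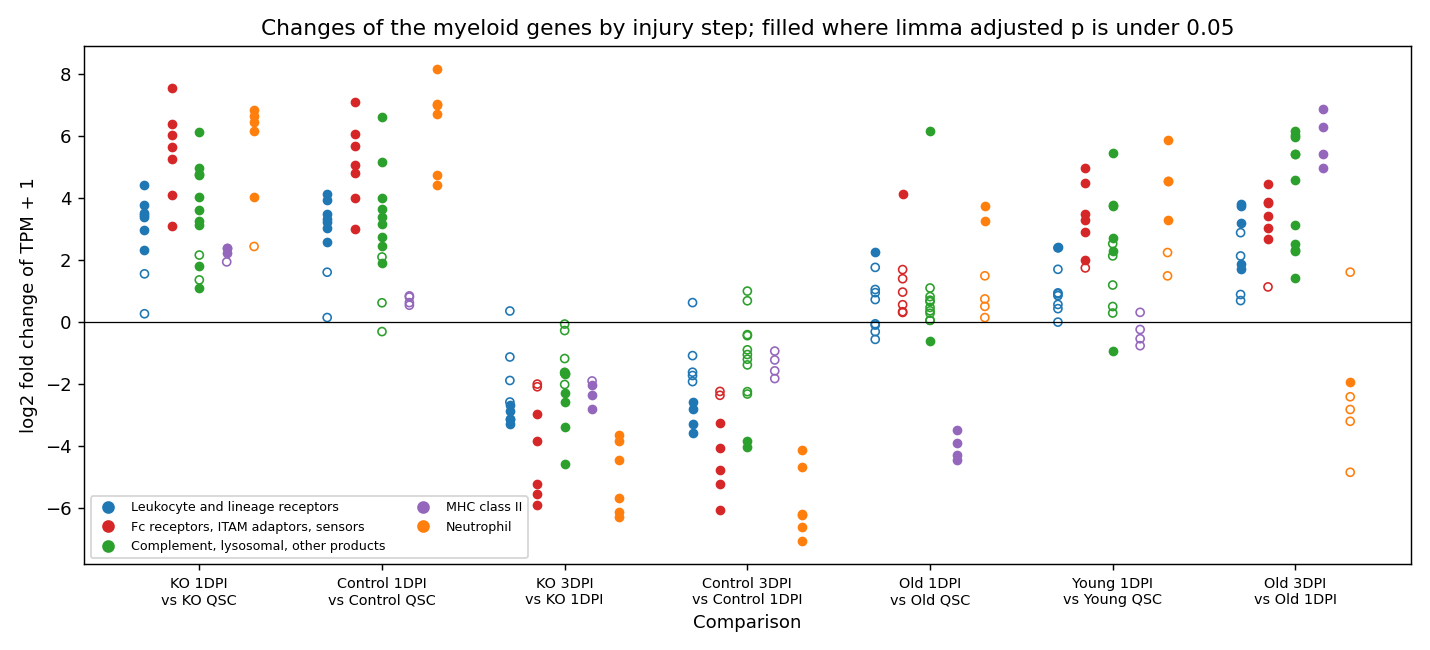
Log2 fold change of TPM + 1 of each member (points, coloured by role) in each injury step, filled where the limma adjusted p is under 0.05. Most points lie above 0 from QSC to 1 DPI and below 0 from 1 to 3 DPI in KO and Control, and in Old cells from 1 to 3 DPI every member outside the neutrophil role lies above 0.

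In the other table, resting cells of Old mice held more of some myeloid transcripts than those of Young mice, unevenly between libraries. The summed member TPM was 5797, 577 and 1386 in Old QSC and 351, 182 and 263 in Young QSC. Neutrophil genes made up 77.5, 5.203 and 1.59% of it in Old QSC. In replicate 1 of Old QSC, S100a8 was at 2933 TPM and the 5 erythroid markers summed to 1698 TPM, against 5.95 and 103 TPM in the other Old libraries and 3.66 to 39.6 TPM in Young. B cell markers summed to 1815, 21.3 and 374 TPM in Old QSC and 3.37, 102 and 6.73 TPM in Young QSC, while Ms4a1 and Pax5 stayed at or under 0.366 TPM in all 6. The part of blood-derived RNA in the comparison was not tested.

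Between Old and Young QSC, limma called 3 of 37 members higher and none lower, against 0.726% of 16949 genes. As a median the members' log2 fold change was 1.56, or 0.996 with the gene factors of the floor removed, beside -0.04 for all genes. Of 38 members, 13 had every Old above every Young library and 2, Pf4 and Hcar2, had every Old library below. Such separation was not counted for all genes, so whether the members separated more often than other genes is not known. Cd52, a small surface glycoprotein of leukocytes, had 37.8, 10.6 and 35.1 TPM in Old QSC and 3.81, 4.62 and 1.59 TPM in Young QSC, a log2 fold change of 2.62 ± 0.53 (SE, adjusted p = 0.0407 by limma). Cd14 had 92.0, 55.9 and 95.9 TPM in Old QSC and 21.1, 12.3 and 11.8 TPM in Young QSC, a log2 fold change of 2.36 ± 0.48 (SE, adjusted p = 0.041 by limma). Cyba had 126, 116 and 102 TPM in Old QSC and 55.2, 63.4 and 60.4 TPM in Young QSC, a log2 fold change of 0.93 ± 0.19 (SE, adjusted p = 0.0457 by limma). In all 3 genes the groups did not overlap. The calls lie close to the threshold: each was lost in 7 of 12 alternative fits, no member was called without Old replicate 1, without Old replicate 3 or without any 1 Young library, and 6 were called without Old replicate 2.

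Larger but more scattered differences were not called. Tyrobp had 76.0, 3.41 and 43.7 TPM in Old QSC and the floor, the floor and 7.21 TPM in Young QSC, a log2 fold change of 3.50 ± 0.96 (SE, adjusted p = 0.103 by limma). S100a8 had 2933, 25.4 and 7.87 TPM in Old QSC and 5.49, 13.8 and 0.129 TPM in Young QSC, a log2 fold change of 4.21 ± 1.60 (SE, adjusted p = 0.25 by limma). Only 1 Old library was far above the Young ones for S100a8, and Tyrobp was lowest in Old replicate 2 among the Old libraries. Gpnmb, a glycoprotein of phagocytes that is also made outside them, had 31.0, 19.7 and 24.3 TPM in Old QSC and 10.6, 10.01 and 12.02 TPM in Young QSC without overlap, and its log2 fold change was 1.11 ± 0.32 (SE, adjusted p = 0.117 by limma).

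At 1 DPI limma called 1 of 37 members between the ages, against 0.142% of all genes, and the median log2 fold change was -0.02. Gpnmb had 31.4, 27.8 and 19.0 TPM in Old 1 DPI and 6.93, 4.95 and 4.10 TPM in Young 1 DPI, a log2 fold change of 2.09 ± 0.32 (SE, adjusted p = 0.0158 by limma). Every Old library was above every Young one, and the call was lost in 6 of 12 alternative fits. The summed member TPM was 620.1, 1096 and 2085 in Old 1 DPI and 2057, 1146 and 664 in Young 1 DPI.

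From QSC to 1 DPI, 16 of 37 members rose and 1 fell in Young cells, against 32% of all genes called in either direction and 23.2% called higher. With both ages counted, 21 members reached the minimum for testing within QSC and 36 within 1 DPI. A member kept only through 1 DPI was bound to differ. Over the members the median log2 fold change was 2.13, beside 0.24 for all genes, and it was 1.18 with the gene factors of the floor removed. Pf4 had the smallest p, with 146, 118 and 66.1 TPM in Young 1 DPI and 2.33, 3.00 and the floor TPM in Young QSC, a log2 fold change of 5.44 ± 0.59 (SE, adjusted p = 1.22e-05 by limma). Within QSC it did not reach the minimum for testing, so it was bound to differ. Tyrobp had 97.8, 77.5 and 39.9 TPM in Young 1 DPI, above all Young QSC libraries, and a log2 fold change of 4.96 ± 0.96 (SE, adjusted p = 0.00124 by limma). S100a8 had 157, 181 and 45.9 TPM in Young 1 DPI, and its log2 fold change was 4.54 ± 1.60 (SE, adjusted p = 0.0433 by limma). That call was lost in 7 of 13 alternative fits, and that of S100a9 in 8 of 13. By role, 6 of 7 Fc receptors, adaptors and sensors, 4 of 6 neutrophil genes, 5 of 11 macrophage products, 1 of 9 receptors and 0 of 4 MHC class II genes rose. Gpnmb was the member that fell, by -0.93 ± 0.32 (SE, adjusted p = 0.0367 by limma) on the log2 scale, a call lost in 7 of 13 alternative fits.

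In Old cells 5 of 37 members rose and 5 fell over the same step, with 32.5% of all genes called, so the share of members called was no larger than that of all genes. Here the members' median log2 fold change was 0.55, beside 0.27 for all genes. Pf4 had 25.2, 96.0 and 173 TPM in Old 1 DPI and was at the floor in all 3 Old QSC libraries, with a log2 fold change of 6.16 ± 0.59 (SE, adjusted p = 3.25e-06 by limma). As in Young cells, it was bound to differ. Clec4e, Il1r2, Hcar2 and Adgre1 also rose, and Cyba and all 4 MHC class II genes fell. The call of Adgre1 was lost in 8 of 13 alternative fits, and that of Cyba in 4 of 13, among them that without Old QSC replicate 1. Cd74 had 4.49, 8.13 and 34.0 TPM in Old 1 DPI and 230.5, 156 and 351 TPM in Old QSC, a log2 fold change of -4.28 ± 0.88 (SE, adjusted p = 0.00176 by limma). H2-Ab1 had 3.85, 3.06 and 21.4 TPM in Old 1 DPI and 164, 50.1 and 173 TPM in Old QSC, a log2 fold change of -3.90 ± 1.10 (SE, adjusted p = 0.0141 by limma). For both genes every Old 1 DPI library was below every Old QSC library. In Young cells Cd74 had 188, 9.44 and 57.3 TPM at 1 DPI and 105, 23.9 and 71.4 TPM in QSC, groups that overlapped, with a log2 fold change of -0.24 ± 0.88 (SE, adjusted p = 0.873 by limma).

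For S100a8 and S100a9 the result of the Old step depended on 1 library, Old QSC replicate 1. The neutrophil genes Hcar2 and Il1r2 were called higher with it and without it. S100a9 had 28.7, 110.4 and 134 TPM in Old 1 DPI and 1245, the floor and 13.3 TPM in Old QSC, with a log2 fold change of 1.49 ± 1.802 (SE, adjusted p = 0.576 by limma). Without Old QSC replicate 1 it was 4.24 (adjusted p = 0.016 by limma), and that of S100a8 was 3.27 (adjusted p = 0.022 by limma). Then 8 members rose and 4 fell. The test of the age difference in this step called 0 of 37 members, against 0.0118% of all genes. An unadjusted p under 0.05 was seen for 13 of 37 members and 1497 of 16949 genes. The lowest limma adjusted p among the members was that of H2-Eb1, with a difference of -3.79 ± 0.93 (SE, adjusted p = 0.246 by limma).

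At 3 DPI the Old cells held the most myeloid RNA of their table, in contrast to the 3 DPI cells of the Drp1 table, from which they differ in age and genotype, and the labels do not say how they were sorted. The summed member TPM was 13779.6, 13771 and 12070.3 in Old 3 DPI. Against Old 1 DPI, limma called 26 of 37 members higher and 1 lower, against 17.5% of all genes in either direction and 5.74% higher. Their median log2 fold change was 3.03, beside -0.24 for all genes. Of 38 members, 28 had every 3 DPI library above every 1 DPI library and 4 had every one below. This was not counted for all genes, so whether the members separated more often than other genes is not known. Young cells of 3 DPI are not in the table, so age and time cannot be compared there.

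All 11 macrophage products tested rose. Ms4a7, with the smallest p among them, had 263, 189 and 294 TPM in Old 3 DPI and 1.34, 5.25 and 12.2 TPM in Old 1 DPI, a log2 fold change of 5.41 ± 0.71 (SE, adjusted p = 0.000236 by limma). Ctss, the protease cathepsin S whose promoter is printed above, had 1907, 1549 and 1563 TPM in Old 3 DPI and 18.7, 4.27 and 126 TPM in Old 1 DPI, a log2 fold change of 6.14 ± 0.89 (SE, adjusted p = 0.000492 by limma). Lyz2 had 3972, 2974 and 2917 TPM in Old 3 DPI and 73.7, 113 and 304 TPM in Old 1 DPI, a log2 fold change of 4.57 ± 0.97 (SE, adjusted p = 0.00556 by limma). All 3 genes were far above every earlier Old library. C1qb had 1182, 1354 and 885 TPM in Old 3 DPI and 4.18, 12.1 and 82.8 TPM in Old 1 DPI, a log2 fold change of 5.98 ± 1.43 (SE, adjusted p = 0.0111 by limma).

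All 4 MHC class II genes rose as well. Cd74 had 808, 1122 and 898 TPM in Old 3 DPI, and its log2 fold change over Old 1 DPI was 6.28 ± 0.88 (SE, adjusted p = 0.00039 by limma). It was thus lowest at 1 DPI and highest at 3 DPI in Old cells. Of the Fc receptors, adaptors and sensors 6 of 7 rose, and Clec4e, with 85.9, 194 and 82.0 TPM in Old 3 DPI and 29.6, 39.4 and 108 TPM in Old 1 DPI, was not called. Receptors rose in 5 of 9 cases. Ptprc had 50.4, 59.2 and 25.2 TPM in Old 3 DPI and 3.94, 2.24 and 11.8 TPM in Old 1 DPI without overlap, and its log2 fold change was 2.88 ± 0.98 (SE, adjusted p = 0.0581 by limma). Ccr2 overlapped between the days and was not called.

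None of the 6 neutrophil genes rose in this step. S100a8 had 7.80, 20.6 and 20.6 TPM in Old 3 DPI and 63.2, 171 and 290.1 TPM in Old 1 DPI, a log2 fold change of -3.20 ± 1.60 (SE, adjusted p = 0.193 by limma). The 3 libraries of 3 DPI were below the 3 of 1 DPI, as they were for S100a9 and Hcar2. Of these Hcar2 was called lower, with a log2 fold change of -1.93 ± 0.59 (SE, adjusted p = 0.0378 by limma), and that call was lost in 8 of 13 alternative fits. Neutrophil genes made up 0.264, 0.615 and 0.331% of the summed member TPM in Old 3 DPI and 26.4, 30.4 and 25.2% in Old 1 DPI. Erythroid markers summed to 1211, 789 and 933 TPM in Old 3 DPI and 3.63, 3.58 and 102 TPM in Old 1 DPI. The satellite cell markers summed to 1118, 1364 and 1034 TPM in Old 3 DPI and 3408, 3026 and 2308 TPM in Old 1 DPI. Of these 12 markers 7 were called lower, beside 17.5% of all genes called in either direction. The part of both lists in the result was not tested.

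Lists of related genes were counted in the same steps. From QSC to 1 DPI, 23 of 30 other macrophage and monocyte genes rose in each genotype, as did 13 of 16 pan-leukocyte genes, 10 of 15 other neutrophil genes and 6 of 9 NADPH oxidase genes, the member Cyba among them. Of 19 myeloid growth factors and chemoattractants, 14 rose in KO and 13 in Control, and 1 fell in each. From 1 to 3 DPI, 16 of these 19 fell in KO and 15 in Control, while in Old cells 3 rose and 3 fell. From 1 to 3 DPI in Old cells, 18 of 29 other macrophage genes and 9 of 16 pan-leukocyte genes rose, and 0 of 13 other neutrophil genes did. Of 7 dendritic cell genes, 1 rose and 1 fell in KO and 2 fell in Control from QSC to 1 DPI, near the share of all genes called (32.1% in KO and 35.9% in Control). Spp1 (osteopontin), a secreted phosphoprotein of macrophages and other cells, is on the other macrophage list. It did not fall with the members from 1 to 3 DPI in the Drp1 table. Its level was 411 to 2951 TPM in the KO and Control 1 DPI libraries and 1810 to 2579 TPM in those of 3 DPI, where the members were low. In Old cells it went up with the members, from 133 to 579 TPM at 1 DPI to 2539 to 3056 TPM at 3 DPI.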

How the data were processed

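Transcriptomes of 36 libraries were deposited by the authors as TPM, in a Drp1 table of 21 libraries and a Young and Old table of 15. Per the labels' protocols, RNA was isolated with PicoPure and both a NEBNext Single Cell/Low Input and a directional protocol are named, without a kit per sample. Per the submitters' processing notes, GRCm38, CASAVA 1.8.2, cutadapt 1.7.1 and RSEM 1.3.1 were used, and for the aligner no name is given in the sources used here. TPM carry no read counts, so no count model was used and depth is unknown.

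Gene symbols were taken from GENCODE M21 and matched 55144 of 55471 identifiers. A gene was kept in a table where 3 or more libraries had 1 TPM or more, which left 18343 and 16949 genes, with 38 and 37 members (Slamf9 was not kept in the Young and Old table). A member that passed only through the group where it is high is bound to differ: 26, 37 and 33 members reached the minimum within QSC, 1 DPI and 3 DPI of the Drp1 table, and 21, 36 and 32 within those of the other. Tests were run per table in R 4.3.3 with limma 3.58.1 (trend, all groups in 1 fit) on log2(TPM + 1), two-sided, with Benjamini-Hochberg adjustment over all kept genes and calls at 0.05. Fold changes are on that scale and understate low genes. Called, rose and fell refer to that threshold. The fits were checked on simulated data.

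Correlations with Tyrobp were computed within 1 state of 1 table, with exact two-sided permutation tests in Python 3.11.15 (numpy 2.4.6, scipy 1.17.1, pandas 2.3.3) and adjustment over all genes in place of the planned adjustment over the members.

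Members and lists were chosen with earlier results of these data known. The genes given in every library were those of highest mean TPM in each role, those called between genotypes or ages, and those of smallest p in each injury step. The alternatives were another pseudocount, no filter, median-of-ratios scaling, array weights, only the 2 groups compared, a replicate block, and each library left out.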

Additional observations from a re-analysis of the deposited data

Results flagged for a closer look

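Each gene's values were screened in groups of 4 libraries for a highest or lowest library that stood far from the others (Dixon's test, critical value 0.829). Of 114 groups 7 stood out, and chance alone gives about 1 in 20. In KO 1 DPI replicate 2, the library with the highest myeloid sum, Ms4a7 was at 150 TPM, against 9.45 to 10.4 TPM in the other 3, and Slamf9 was at 5.09 TPM, against 1.57 to 1.92 TPM. In KO 3 DPI replicate 3, Laptm5 was at 0, against 8.46 to 11.2 TPM in the other 3, while S100a9 was at 11 TPM, against 5.03 to 5.24 TPM. In KO 3 DPI replicate 4, Retnlg was at 1.1 TPM and Slamf9 at 0.205 TPM, both listed at 0 in the other 3. Slamf9 was also at 0.0915 TPM in Control 1 DPI replicate 4 and listed at 0 in the other 3.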

How the results depend on the processing

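Over 20 counts of members and their alternative settings, 199 values lay within 1.5 times the reported count, 33 did not and 0 changed direction. Counts of 0 that stayed at 0 are among the 199. A change of direction could be seen only where both counts were above 0, and was not assessed for the correlations. Where a count moved the cause was not tested. The single call between KO and Control at 1 DPI, Slamf9, became 0 members with a pseudocount of 0.1, with no filter, with median-of-ratios scaling, with array weights, with only the 2 groups compared and with the replicate block, and 0 to 0 with each library left out. Between Old and Young QSC the 3 calls became 10 with no filter, 1 with array weights and 0 with only the 2 groups, and 0 to 6 with each library left out: 0 without Old replicate 1, Old replicate 3 or any Young library, and 6 without Old replicate 2. Between Old and Young at 1 DPI the 1 call became 0 with no filter and 0 with only the 2 groups, and 0 to 1 with each library left out (0 without Old replicate 1, Old replicate 2, Young replicate 6 or Young replicate 7). From QSC to 1 DPI in Young cells the 17 calls became 10 with no filter. Of members correlated with Tyrobp at 1 DPI of the Drp1 table, 0 passed without the 2 libraries farthest from the median. The genotype differences in the injury steps ranged from 0 to 1 member with each library left out (1 without Control 3 DPI replicate 1), and the age difference from 0 to 1 (1 without Young 1 DPI replicate 6). From QSC to 1 DPI the left-out counts were 27 to 36 in KO, 26 to 30 in Control, 7 to 12 in Old and 12 to 20 in Young. From 1 to 3 DPI they were 18 to 31 in KO, 14 to 23 in Control and 22 to 27 in Old.

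Same-numbered libraries of the groups compared correlated between -0.212 and 0.192 in their deviations from the group means, so the numbers were not taken to pair them. With the replicate block, 33 members were called in KO and 30 in Control from QSC to 1 DPI, 27 in KO and 22 in Control from 1 to 3 DPI, and 9 in Old and 14 in Young from QSC to 1 DPI. No paired analysis was possible for Old against Young because these groups share no replicate numbers. Median-of-ratios scaling moved the median of all genes by -0.21 in both genotypes from QSC to 1 DPI and by 0.13 in Old from 1 to 3 DPI. Relative to it the members' median was 3.40 in KO and 3.28 in Control as reported, and 3.34 and 3.28 with that scaling. Removing the factor per gene of the floor, an alternative chosen after seeing the data, gave 3 and 1 members between the ages in QSC and at 1 DPI, and ended the calls of S100a9 in Young and Adgre1 in Old from QSC to 1 DPI and of Hcar2 in Old from 1 to 3 DPI. It took the members' median log2 fold change to 0.996 between Old and Young QSC, against 1.56 as reported, and to 1.18 from QSC to 1 DPI in Young, against 2.13. Single calls lost in more than 0.5 of their alternatives were Slamf9 and H2-Aa of 32 in KO and C1qc of 29 in Control from QSC to 1 DPI, H2-Aa and Lyz2 of 25 in KO, Ccr2 of 17 in Control and Itgam and Hcar2 of 27 in Old from 1 to 3 DPI, and Adgre1 of 10 in Old and Gpnmb, S100a8 and S100a9 of 17 in Young from QSC to 1 DPI.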
